A study of Mus musculus with 8 samples.

Results

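The alpha-defensins and the other secreted products of Paneth cells were compared between 4 DSS libraries and 4 DSS+CA libraries. A gene was a member if its symbol in the deposited tables began with Defa followed by a digit or a hyphen, or was Gm15284, Gm14851, Gm15299, Lyz1, Mmp7, Itln1, Ang4, Pla2g2a or Habp2. The rule found 39 of 34745 genes. Of these, 33 were defensin loci, all on chromosome 8, and 17 of the 33 were named as pseudogenes. The other 6 were Lyz1, Mmp7, Itln1, Ang4, Pla2g2a and Habp2.

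Both groups held intestinal crypts of wild-type (WT) C57BL/6 mice collected on day 5. The DSS group had received dextran sulfate sodium, a polymer that injures the gut epithelium and is used to induce colitis. The DSS+CA group had received DSS and cholic acid, a primary bile acid, so the comparison asks what cholic acid added to DSS changed, and no library without DSS was analysed here. The labels do not give the segment of intestine, the age of the mice, the dose or route of cholic acid, or whether each library came from a separate animal, so p-values measure only the spread between these libraries, which may be technical.

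Paneth cells sit at the base of the crypts of the small intestine, beside the stem cells, and release granules of antimicrobial proteins into the crypt lumen. The granules hold alpha-defensins, called cryptdins in mice, which are made as precursors and cut to their active form by the metalloprotease encoded by Mmp7. They also hold lysozyme, from Lyz1, and a secreted phospholipase, a ribonuclease and a lectin. The mature cryptdin is a short cationic peptide held in shape by cysteine pairs that form disulfide bonds.

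The coding sequence shows which defensin rows can be told apart by reads. The 3′ part of the coding sequence, within the last exon and on the strand of the gene, is shown for 5 abundant loci because it carries the cysteines of the mature peptide and shows 2 close pairs and a cryptdin-related sequence. Positions are on GRCm38 with GENCODE M21 gene models, and capitals mark the in-frame cysteine codons TGC and TGT. The stretches lie at chr8:21735270-21735374 for Defa24, chr8:21135396-21135500 for Gm15284, chr8:21026316-21026420 for Defa21 and chr8:21163048-21163152 for Defa22, all on the plus strand, and at chr8:21095077-21095250 for Gm14851, on the minus strand.
Defa24: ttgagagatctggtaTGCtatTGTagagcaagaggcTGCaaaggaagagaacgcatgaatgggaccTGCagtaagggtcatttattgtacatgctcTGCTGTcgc
Gm15284: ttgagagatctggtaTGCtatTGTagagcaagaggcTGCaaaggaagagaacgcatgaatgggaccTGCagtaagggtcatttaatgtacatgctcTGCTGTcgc
Defa21: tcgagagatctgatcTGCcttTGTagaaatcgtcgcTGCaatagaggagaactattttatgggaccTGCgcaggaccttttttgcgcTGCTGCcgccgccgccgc
Defa22: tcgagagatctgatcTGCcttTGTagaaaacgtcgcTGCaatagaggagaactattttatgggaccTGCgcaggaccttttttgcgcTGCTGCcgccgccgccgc
Gm14851: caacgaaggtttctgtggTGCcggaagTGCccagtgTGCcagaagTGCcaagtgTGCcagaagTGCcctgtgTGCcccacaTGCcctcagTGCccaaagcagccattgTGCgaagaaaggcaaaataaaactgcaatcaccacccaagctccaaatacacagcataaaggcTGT

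The first 4 stretches are 105 bases long and hold 6 cysteine codons each. The last, from a cryptdin-related sequence, is 174 bases long and holds 11. Over the whole coding sequence, Defa24 and Gm15284 (Defa30 in RefSeq) were 98.6% identical and differed at 4 of 279 bases. Defa21 and Defa22 were 99.3% identical. Between the pairs, Defa24 and Defa21 shared 81.7%. Gm14851 (Defa38 in RefSeq) shared 64.7% with Defa24, counted as 225 identical bases over the 348 of the longer coding sequence. Defa24 has 279 bases, so that value also reflects the difference in length. Some rows could not be separated in their coding sequence at all. Defa17 and Defa3 had the same coding sequence, yet their rows held 35180 and 2654 counts over the 8 libraries. Defa23 and Defa-rs7 were also identical there, with 632 and 77 counts. Stretches were counted along the longest transcript of each gene. Of its 50-base stretches, the share found in no other gene was 71.9% for Defa24, 47.6% for Gm15284 and 44.4% for Gm14851. The share was 27.1% for Defa21, 25.1% for Defa22, 8.05% for Defa17 and 0.306% for Defa5. It was 83.9% for Lyz1 and 100% for Mmp7, Habp2 and Pla2g2a. With 100-base stretches it was 100% for Defa24, 99.7% for Gm15284, 82.1% for Gm14851, 59.6% for Defa21, 59.7% for Defa22, 9.40% for Defa17 and 11.9% for Defa5. The sources used here state neither the read length nor how shared reads were assigned, so single defensin rows are uncertain to an extent that differs between loci, and the sum over the 33 loci is reported beside them.

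The promoters of several defensins share a layout, shown here for the near-identical pair Defa21 and Defa22, for Defa23 and for the cryptdin Gm15284. Any link between promoter letters and the values across libraries was not tested. Stretches are from RefSeq on GRCm38.p6, plus strand, 102 bases each, and capitals mark 2 motifs. The first, TCAAAG, is the core of the sequence recognised by the Wnt pathway factor TCF7L2. The second is the core promoter element known by the letters TATAAA. They lie at chr8:21025424-21025525 for Defa21, chr8:21162156-21162257 for Defa22, chr8:21054917-21055018 for Defa23 and chr8:21134499-21134600 for Gm15284.
Defa21: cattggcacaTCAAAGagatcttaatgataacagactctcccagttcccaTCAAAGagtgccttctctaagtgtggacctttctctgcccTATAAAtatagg
Defa22: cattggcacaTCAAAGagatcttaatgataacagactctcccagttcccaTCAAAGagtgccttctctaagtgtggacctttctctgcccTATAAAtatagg
Defa23: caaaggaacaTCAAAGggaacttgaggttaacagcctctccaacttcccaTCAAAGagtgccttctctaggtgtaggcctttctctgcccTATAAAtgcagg
Gm15284: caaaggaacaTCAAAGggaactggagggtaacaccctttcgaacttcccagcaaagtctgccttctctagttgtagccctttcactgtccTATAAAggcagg

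The Defa21 and Defa22 stretches are the same in every base. A promoter (250 bases before to 50 after the annotated start) was given for 13 members, 8 of them defensins. TCAAAG stood on the strand of the gene in 7 of the 8 defensin promoters and stood 2 times in 6 of them. On the strand of the gene, 8.33% of all 32851 promoters held it and 0.496% held it at least 2 times. Counting either strand (CTTTGA on the other), 16.0% held it. TATAAA was on the strand of the gene in 8.32% of all promoters. A run of 2 copies of TCAAAG and then the core promoter element, with 40 bases between neighbouring starts, occurred in 9 of all promoters (0.0274%), and all 9 carried a symbol beginning with Defa. The letters TCAAAG were not in the promoter windows of Gm14851, Lyz1, Itln1, Ang4 and Habp2. The motifs and the spacing were chosen after the sequences had been seen, and a match is a description of the letters, not evidence of binding.

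Total counts were 13334012 to 17973196 per library. The mean length of a counted gene, with members left out, was 1512 bases in DSS 2, 1574 in DSS 3 and 1483 in DSS+CA 3, and 1822 to 2473 bases in the other 5 libraries. Mitochondrially encoded genes took 16.2% to 27.7% of the counts in DSS and 9.72% to 20.5% in DSS+CA. Markers of the colon were at or near 0. Car1 had 0 counts in all libraries, Hoxb13 had 2, and the summed level of the 4 colon genes was 2.97 to 16.6 CPM (counts scaled to a common library size). The small-intestinal villus enterocyte genes summed to 24088 to 114891 CPM.

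Defensin transcripts were among the most abundant by their mean over the 8 libraries. Defa24 had a mean of 11135 FPKM (fragments scaled to gene length and library size) over the 8 libraries, sixth in rank among all genes by this level per length. Gm15284 followed with 6397 FPKM, Lyz1 with 5460, Gm14851 with 4785, Defa21 with 1896, Defa22 with 1769, Defa5 with 1721 and Itln1 with 1622. Ang4 had 724 FPKM, Defa17 685 and Mmp7 205, while Pla2g2a had 9.66 and Habp2 3.01. The ranges of neighbours among these genes, each over the 8 libraries, overlapped from Defa24 down to Mmp7. The 33 defensin loci together took 0.637%, 2.11%, 2.85% and 1.54% of all counts in DSS 1 to 4, and 0.410%, 0.621%, 0.934% and 0.590% in DSS+CA 1 to 4. The spread within a group was large, and DSS 1, the lowest DSS library, lay among the DSS+CA libraries.

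On counts scaled by TMM (a trimmed-mean library scaling), the defensin sum was lower in DSS+CA, and the groups overlapped. It was 5246, 28912, 34578 and 15420 CPM in DSS 1 to 4, and 3191, 5397, 12738 and 5129 CPM in DSS+CA 1 to 4. DSS 2 and DSS 3 were the highest, DSS+CA 3 stood above the rest of its group and above DSS 1, and DSS+CA 1 was the lowest of all. The means were 21039 ± 13245 (SD, n = 4) and 6614 ± 4199 CPM (SD, n = 4). The difference in mean log2 CPM was −1.54, or 2.91-fold lower, with an exact two-sided permutation p of 0.0857 (70 assignments of the libraries, for which 0.0286 is the smallest p possible) and an adjusted p of 0.171 over the 4 permutation tests made. As a row in the edgeR fit across all genes it had a log2 fold change of −1.67 (SE 0.63), an unadjusted p of 0.0214 and adjusted p = 0.474 by edgeR's quasi-likelihood test, so it did not pass the threshold of 0.05. In a library of bulk crypts, fewer Paneth cells and less defensin RNA per Paneth cell cannot be told apart. The 3 libraries with the shortest counted genes also had 3 of the 4 highest defensin sums. Without them the difference was −1.01 in mean log2 CPM (exact permutation p = 0.2, where 0.1 is the smallest possible), and in edgeR −1.19 with adjusted p = 0.131. The part of counted gene length in the difference was not tested further.

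**Figure D1:**
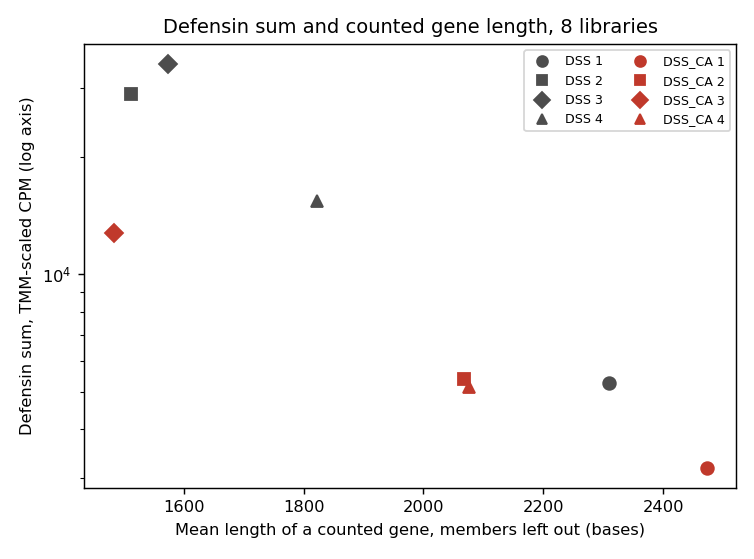
Summed TMM-scaled CPM of the 33 defensin loci (log axis) against the mean length in bases of a counted gene with members left out, 1 point per library, DSS in grey and DSS+CA (DSS_CA in the legend) in red. DSS 2, DSS 3 and DSS+CA 3 lie at 1483 to 1574 bases, and at that length DSS+CA 3 with 12738 CPM lies under DSS 2 and DSS 3 with 28912 and 34578 CPM.

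Singly, 22 of the 39 members passed the filter on low values (4 or more of the 8 libraries at FPKM 1 or above) and were tested. None passed an adjusted p of 0.05 in edgeR, where 0.131% of all 9913 tested genes did and 0.0908% did with a lower value in DSS+CA. All 22 log2 fold changes were below 0, beside 48.1% of all tested genes. They ran from −2.19 to −0.49 with a median of −1.67, beside a median of 0.02 over all tested genes. An unadjusted p below 0.05 with a lower value in DSS+CA was found for 17 of the 22, beside 4.85% of all tested genes. Defa-rs7 is among the 22 and the 17, but it passed the filter only through DSS. Its FPKM was 1.18 to 3.33 in DSS and 0.180 to 0.995 in DSS+CA, so its direction followed from the filter and adds no support. On TMM-scaled CPM, the groups did not overlap, with DSS+CA lower, for 5 of the 22, beside 2.81% of all tested genes. These were Defa21, Defa22, Defa-ps1, Pla2g2a and Habp2. On FPKM, which has no TMM scaling, the groups overlapped for Pla2g2a and Habp2. DESeq2 called 7 of the 22 lower (Defa22, Defa21, Defa17, Defa26, Defa3, Defa-ps6 and Defa-ps1), beside 1.71% of the genes to which it gave an adjusted p. These counts are not 22 independent results, because the defensin rows share reads and the members share libraries. The calls by DESeq2 and the absence of calls by edgeR differ on the same counts.

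**Figure D2:**
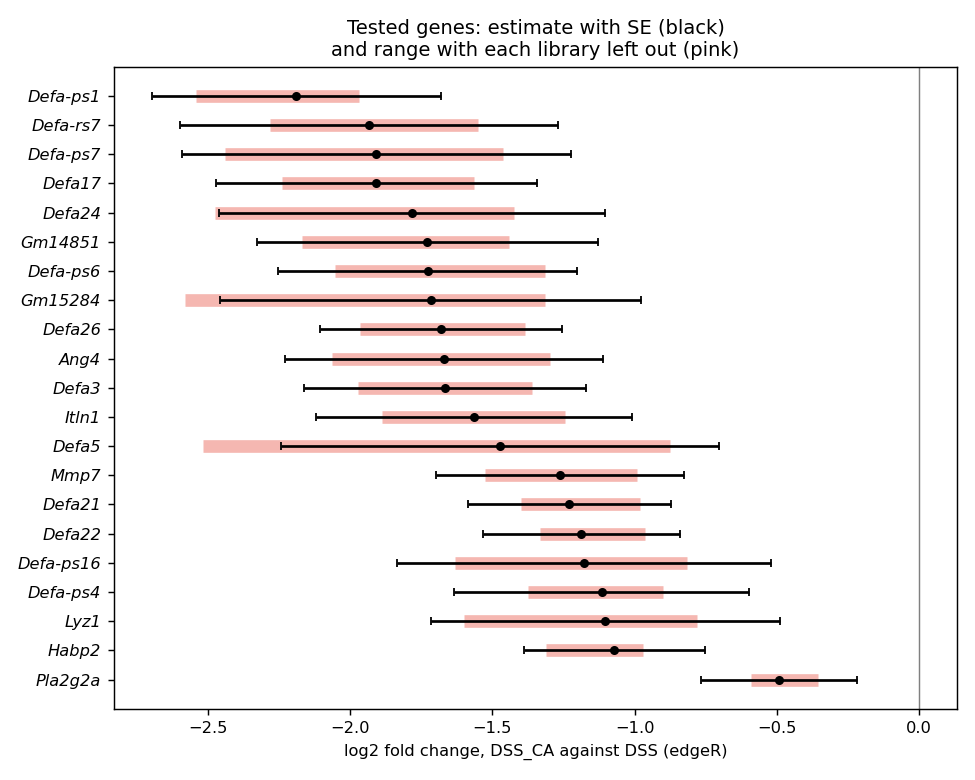
Log2 fold change of DSS+CA against DSS from edgeR for tested members, with points for estimates, black bars for their SE and pink bars for the range when each library in turn was left out. Estimates run from −2.19 for Defa-ps1 to −0.49 for Pla2g2a, and every pink bar lies below 0.

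Among the classical cryptdins, Defa24 and Gm15284 were the most abundant. Defa24 had 1793, 11884, 13866 and 5902 CPM in DSS 1 to 4 and 955, 1883, 5207 and 1673 CPM in DSS+CA 1 to 4. DSS+CA 3 was close to DSS 4, and DSS 1 lay among the DSS+CA libraries. In edgeR the log2 fold change was −1.78 (SE 0.68, adjusted p = 0.476). Gm15284, its near copy, had 744, 6321, 7886 and 3267 CPM in DSS and 491, 923, 3257 and 869 CPM in DSS+CA. Its log2 fold change was −1.72 (SE 0.74, edgeR adjusted p = 0.592). Here DSS+CA 3 was almost level with DSS 4, well above the other 3 DSS+CA libraries. Defa5 had the same shape, with 184, 1224, 2233 and 789 CPM in DSS and 120, 242, 1015 and 219 CPM in DSS+CA. Its log2 fold change was −1.47 (SE 0.77, edgeR adjusted p = 0.726), and without DSS+CA 3 it was −2.52.

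Defa21 and Defa22 differed from that shape, with DSS+CA below DSS in every library. Defa21 had 726, 1236, 1707 and 963 CPM in DSS 1 to 4 and 471, 538, 360 and 606 CPM in DSS+CA 1 to 4. Defa22 had 728, 1040, 1517 and 960 CPM in DSS and 456, 527, 311 and 569 CPM in DSS+CA. For both genes DSS+CA 3 was the lowest library, whereas for Defa24, Gm15284 and Defa5 it was the highest of its group. The log2 fold changes were −1.23 (SE 0.36, edgeR adjusted p = 0.248) for Defa21 and −1.19 (SE 0.35, edgeR adjusted p = 0.251) for Defa22. DESeq2 called both, with adjusted p = 0.0172 and 0.0176, and over all settings run the adjusted p ranged from 0.0172 to 0.694 for Defa21 and from 0.0176 to 0.683 for Defa22. Their ratio to each other was 0.996 to 1.19 in the 8 libraries, so the near-identical pair gave nearly the same value in each.

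Defa17 was lower with a log2 fold change of −1.91 (SE 0.56, edgeR adjusted p = 0.259). It had 111, 695, 798 and 352 CPM in DSS and 69.3, 121, 208 and 123 CPM in DSS+CA. Only DSS 1 lay among the DSS+CA libraries. Defa26 and Defa3, at lower levels, had log2 fold changes of −1.68 and −1.67. Defa26 had 23.2 to 104 CPM in DSS and 16.2 to 24.2 CPM in DSS+CA.

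Gm14851, a cryptdin-related sequence whose product carries more cysteines, stood with the cryptdins. It had 679, 4546, 4410 and 2169 CPM in DSS 1 to 4 and 427, 807, 1592 and 735 CPM in DSS+CA 1 to 4. DSS 1 was the only DSS library that overlapped with DSS+CA. The log2 fold change was −1.73 (SE 0.60, edgeR adjusted p = 0.388).

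Of the 17 loci named as pseudogenes, 5 were tested, and together the 17 held 0.132% to 0.217% of the counts of the 33 defensin loci. Defa-ps1 had the smallest p of the members. Its counts were 52, 147, 147 and 105 in DSS and 19, 29, 29 and 22 in DSS+CA. The log2 fold change was −2.19 (SE 0.51, edgeR adjusted p = 0.119), and the groups did not overlap. Without DSS+CA 3 the adjusted p was 0.0494 in edgeR, and over all settings it ranged from 0.00202 to 0.399. The 17 members that were not tested comprised 11 with 0 counts in all libraries, Defa2, Defa20 and Defa25 among them. The other 6 had counts but did not pass the filter. Defa23 had the most of these, 0, 347, 274 and 9 counts in DSS and 0, 0, 2 and 0 in DSS+CA. It was called in edgeR only when the filter on low values was dropped (adjusted p = 0.0271), its counts lay almost wholly in DSS 2 and DSS 3, and its coding sequence is that of Defa-rs7. The longest transcripts of Defa2, Defa20 and Defa-rs7 held no 50-base stretch of their own. A count of 0 for Defa2 and Defa20 therefore does not show that they were not expressed.

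**Figure D3:**
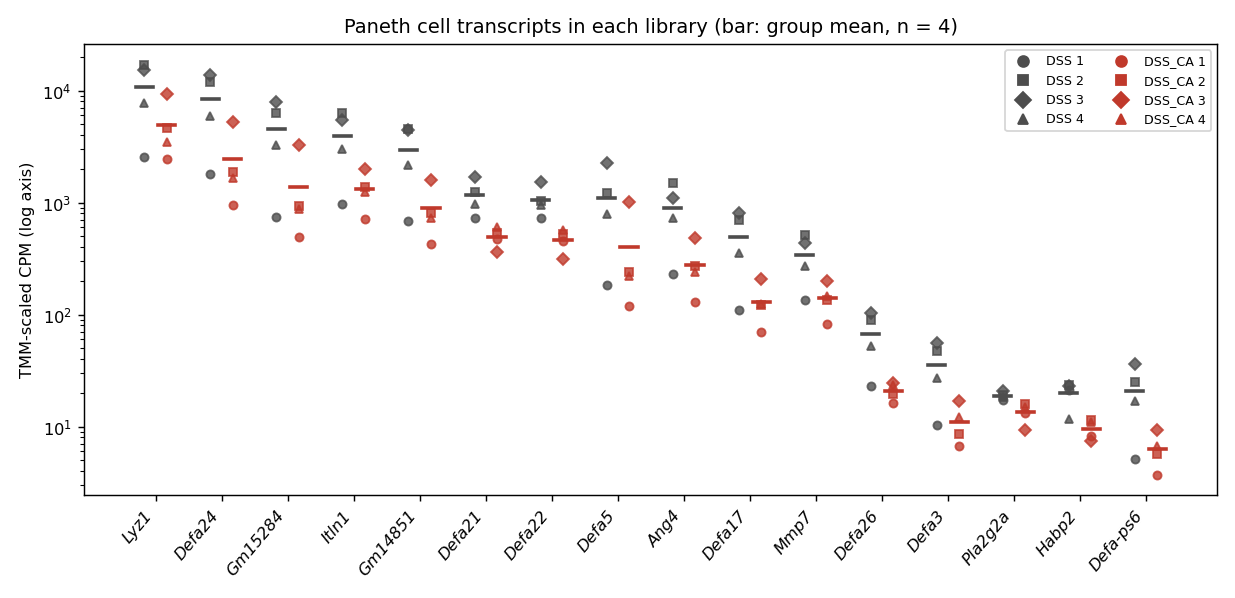
TMM-scaled CPM (log axis) of the more abundant tested members in each library, DSS in grey and DSS+CA (DSS_CA) in red, with a symbol for each replicate number and a bar for each group mean (n = 4). DSS 1 is the lowest DSS library for most members, and DSS+CA 3 is the highest DSS+CA library for Lyz1, Defa24, Gm15284 and Defa5 but the lowest for Defa21 and Defa22.

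Lysozyme and the other granule products also had lower means in DSS+CA. Lyz1, the Paneth cell lysozyme, had 2569, 17071, 15341 and 7682 CPM in DSS 1 to 4 and 2450, 4607, 9314 and 3488 CPM in DSS+CA 1 to 4. DSS+CA 3 exceeded DSS 4, and DSS 1 was near the lowest DSS+CA library. The log2 fold change was −1.10 (SE 0.61, edgeR adjusted p = 0.756). Itln1, which encodes an intelectin that binds microbial sugars, had 962, 6294, 5470 and 3036 CPM in DSS and 717, 1379, 1983 and 1252 CPM in DSS+CA (log2 fold change −1.56, SE 0.56, edgeR adjusted p = 0.414). Ang4, an antimicrobial ribonuclease, had 231, 1494, 1108 and 721 CPM in DSS and 130, 270, 478 and 238 CPM in DSS+CA (log2 fold change −1.67, SE 0.56, edgeR adjusted p = 0.364). In both, only DSS 1 overlapped with DSS+CA. Mmp7, the protease that activates cryptdins, had 136, 513, 437 and 271 CPM in DSS and 82.8, 135, 201 and 147 CPM in DSS+CA. Its log2 fold change was −1.26 (SE 0.43, edgeR adjusted p = 0.387).

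Pla2g2a and Habp2 were rare, and across libraries they were closer to Defa21 and Defa22 than to the defensin sum. Pla2g2a encodes a secreted phospholipase and is annotated as a polymorphic pseudogene in GENCODE, since the C57BL/6 strain carries a disrupted copy. It had 17.3, 19.2, 20.7 and 18.3 CPM in DSS and 13.2, 16.0, 9.30 and 15.0 CPM in DSS+CA. On this scale the groups did not overlap, yet the difference was small, with a log2 fold change of −0.49 (SE 0.27, edgeR adjusted p = 0.756). On FPKM, without TMM, the groups overlapped for Pla2g2a, with 8.34 to 12.5 in DSS and 4.06 to 11.0 in DSS+CA. Habp2, which encodes a secreted serine protease, had 21.4, 23.6, 23.1 and 11.8 CPM in DSS and 8.24, 11.4, 7.36 and 11.0 CPM in DSS+CA. DSS 4 was barely above the highest DSS+CA library, and the log2 fold change was −1.07 (SE 0.32, edgeR adjusted p = 0.259). In FPKM the Habp2 groups overlapped too, with 2.45 to 5.41 in DSS and 1.12 to 2.73 in DSS+CA. As a description over the 8 libraries, which share their scaling, Pearson's r of log2 CPM with the defensin sum was 0.411 for Pla2g2a, 0.544 for Habp2, 0.665 for Defa22 and 0.740 for Defa21. Between Pla2g2a and these 2 genes it was 0.932 (Defa22) and 0.893 (Defa21), and between Habp2 and them 0.847 and 0.853. With the defensin sum, r was 0.999 for Defa24, 0.996 for Gm14851 and 0.968 for Lyz1. Defa24, Gm14851, Defa21 and Defa22 are parts of that sum, so their r is partly built in. Defa24 held 29.9% to 41.1% of its counts and Gm14851 12.5% to 15.7%. Lyz1, Pla2g2a and Habp2 are not parts of it.

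The make-up of the defensin pool differed between libraries of the same group. All shares here are of the summed counts of the 33 loci that the rule took. Defensin-like loci outside the rule are not in them. One of those, AY761184, had 291274 counts over the 8 libraries, beside 217060 for Gm14851. The 8 most abundant loci of the rule held 99.1% to 99.5% of the counts of the 33 in every library. Defa21 and Defa22 together held 27.7%, 7.87%, 9.32% and 12.5% in DSS 1 to 4, and 29.1%, 19.7%, 5.26% and 22.9% in DSS+CA 1 to 4. The share was lowest in DSS+CA 3, DSS 2 and DSS 3, the 3 libraries with the shortest counted genes, and highest in DSS 1 and DSS+CA 1, the 2 with the longest. Defa24 held 29.9% to 41.1% and Gm14851 12.5% to 15.7%. The ratio of Defa24 to Defa21 counts was accordingly 2.03 to 14.5 and did not follow the groups, with 2.47, 9.62, 8.12 and 6.13 in DSS and 2.03, 3.50, 14.5 and 2.76 in DSS+CA. The part of library quality in this shift was not tested.

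**Figure D4:**
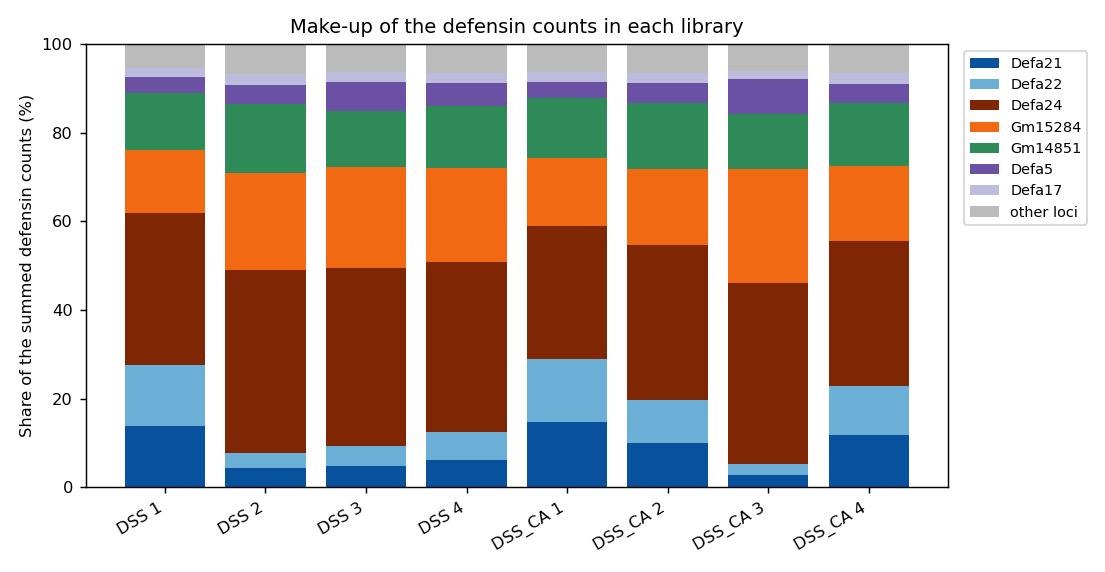
Share (%) of the summed counts of the 33 defensin loci of the rule, 1 bar per library, DSS_CA standing for DSS+CA. Segments show each named locus and the other loci of the rule together. The blue segments, Defa21 and Defa22, make up 27.7% in DSS 1 and 29.1% in DSS+CA 1 but 5.26% in DSS+CA 3.

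Relative to the 6 other products in the same library, defensins were lower in DSS+CA. The 6 other products summed to 3937, 25415, 22399 and 11740 CPM in DSS and 3401, 6418, 11993 and 5150 CPM in DSS+CA. Their difference in mean log2 CPM was −1.07 (exact permutation p = 0.2, adjusted p = 0.267), with overlapping groups. The ratio of defensin counts to the counts of these 6 was 1.33, 1.14, 1.54 and 1.31 in DSS 1 to 4, and 0.938, 0.841, 1.06 and 0.996 in DSS+CA 1 to 4. Every DSS library lay above every DSS+CA library. The means were 1.33 ± 0.166 and 0.959 ± 0.0937 (SD, n = 4 each), a 1.39-fold difference with an exact permutation p of 0.0286, the smallest possible, and an adjusted p of 0.114, so it did not pass after adjustment. A ratio within a library does not depend on how libraries were scaled.

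The size of that ratio's difference rested on Lyz1. With Lyz1 alone as the denominator, chosen after the values had been seen, the ratio was 2.04, 1.69, 2.25 and 2.01 in DSS and 1.30, 1.17, 1.37 and 1.47 in DSS+CA, with no overlap and a mean difference of 1.50-fold. With the other 5 products as the denominator, the groups overlapped, with 3.47 to 4.90 in DSS and 2.98 to 4.76 in DSS+CA, and the difference was 1.14-fold. The ratio of Lyz1 to Defa24 was 1.43, 1.44, 1.11 and 1.30 in DSS, and 2.57, 2.45, 1.79 and 2.09 in DSS+CA. Lyz1 counts were 902 to 1193 times those of its neighbour and close relative Lyz2, the lysozyme of macrophages, in DSS and 1248 to 2022 times in DSS+CA. Whether Lyz2 counts include reads shared with Lyz1 was not tested.

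Against other epithelial lineages, the picture depended on the lineage. The ratio of defensin counts to those of 8 goblet cell genes was 0.650, 2.72, 2.62 and 1.45 in DSS and 0.808, 1.29, 1.43 and 1.37 in DSS+CA. DSS 1 was the lowest of all and the groups overlapped (difference in mean log2 −0.43, exact permutation p = 0.514, adjusted p = 0.514). Without the 3 libraries with the shortest counted genes the difference turned to 0.21 in the other direction. Against the 8 villus enterocyte genes, a denominator also chosen after the values had been seen and so given without a test, the ratio was 0.218, 0.347, 0.343 and 0.300 in DSS and 0.108, 0.120, 0.111 and 0.120 in DSS+CA. The groups did not overlap and differed 2.59-fold, and the DSS+CA libraries lay close together. The same ratio for Lyz1 differed 1.72-fold and for the other 5 products 2.27-fold, each without overlap. For Defa21 and Defa22 together it differed 2.01-fold and the groups overlapped (0.0274 to 0.0604 in DSS, 0.00584 to 0.0314 in DSS+CA), and for the goblet list it differed 1.92-fold with overlap.

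**Figure D5:**
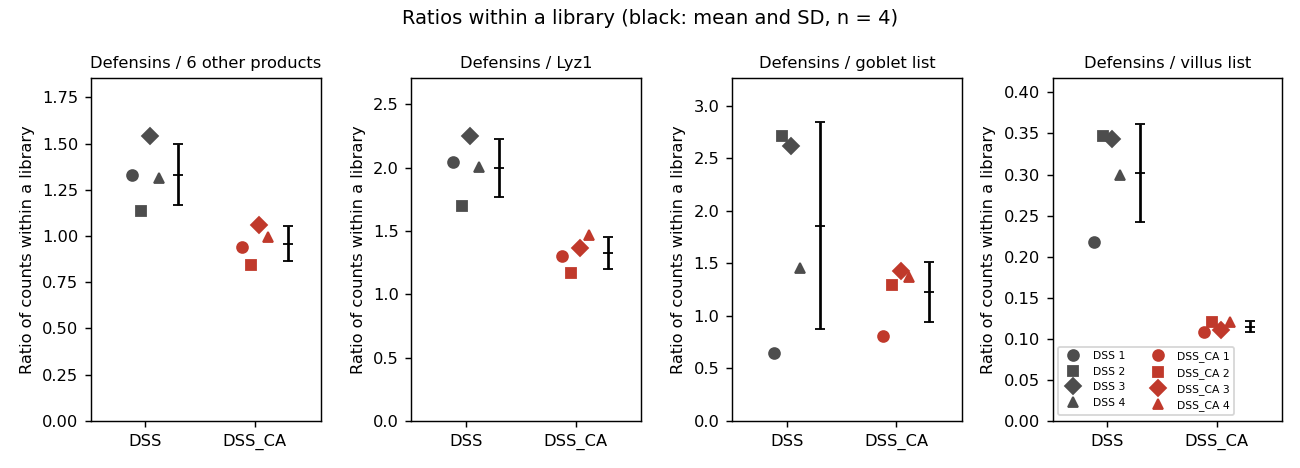
Ratio of the summed defensin counts to the counts of the 6 other products, Lyz1, the goblet list and the villus enterocyte list within each library, DSS in grey and DSS+CA (DSS_CA) in red, with the mean and SD of each group in black (n = 4). The groups do not overlap against the 6 other products, Lyz1 and the villus list, and overlap against the goblet list, where DSS 1 has the lowest ratio of 0.650.

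Defensin-like loci that the rule did not take gave similar values. Of 9 listed, 6 were tested and all 6 had log2 fold changes below 0 (median −1.69). None passed in edgeR, 3 had an unadjusted p below 0.05, and DESeq2 called 1. Over all tested genes, 4.85% were lower with an unadjusted p below 0.05 in edgeR. DESeq2 called 1.71% lower of the genes to which it gave an adjusted p. In either direction, 775 of the 9913 tested genes had an unadjusted p below 0.05 in edgeR, and DESeq2 called 220. The lists below are short and are to be read beside these shares. AY761184, a cryptdin-related sequence, averaged 4062 CPM in DSS and 1126 CPM in DSS+CA (log2 fold change −1.85, SE 0.67, edgeR adjusted p = 0.427). Gm15292 averaged 56.6 and 15.2 CPM (log2 fold change −1.90, edgeR adjusted p = 0.237).

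Of 10 further Paneth cell markers, all were tested and 8 had log2 fold changes below 0 (median −0.69). None passed in edgeR, and 4 had an unadjusted p below 0.05, all lower, beside 4.85% of all tested genes. DESeq2 called 1, beside 220 genes called in either direction. Nupr1, a stress-response gene, had a log2 fold change of −1.91 (SE 0.44, edgeR adjusted p = 0.119), and Lyz2 −1.60 (SE 0.62, edgeR adjusted p = 0.497). Lyz2 also stands in the macrophage list below, so its value cannot be assigned to either cell type. The antimicrobial lectins Reg3b and Reg3g, which enterocytes also make, stood apart. Reg3b had 3140, 6358, 16272 and 5892 CPM in DSS and 985, 1933, 32279 and 2799 CPM in DSS+CA, so DSS+CA 3 held the highest value and the other 3 DSS+CA libraries the lowest.

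The regulators of the lineage had log2 fold changes in both directions. Of 16 genes of Paneth cell fate and niche, 11 were tested, and 5 had log2 fold changes below 0 and 6 above (median 0.15). None passed in edgeR or DESeq2. An unadjusted p below 0.05 was found for 1 lower and 1 higher gene, beside 775 of all 9913 tested genes. Wnt3, the Wnt ligand that Paneth cells supply to stem cells, had a log2 fold change of −1.04 (SE 0.40, edgeR adjusted p = 0.478), with 4.35 to 7.83 CPM in DSS and 1.23 to 3.82 CPM in DSS+CA. Xbp1, a factor needed for secretory cells to handle protein load, had a log2 fold change of 0.62 (SE 0.27, edgeR adjusted p = 0.612). Atoh1, which commits cells to the secretory lineage, averaged 11.2 CPM in DSS and 9.51 in DSS+CA, and Sox9, required for Paneth cells to form, 11.0 and 12.6 CPM. Both lay at levels where the groups overlapped. Gfi1, of the same list, did not pass the filter and was not tested. It had 3.58 to 5.98 CPM in DSS and 1.94 to 3.49 CPM in DSS+CA, without overlap. For Kit, Egf, Ephb3 and Tcf7l2, also not tested, the groups overlapped.

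Of 12 genes of granule handling, autophagy and microbial sensing, 9 were tested, and 2 had log2 fold changes below 0 and 7 above (median 0.06). None passed in edgeR or DESeq2. The 2 below 0, each with an unadjusted p below 0.05, were Irgm1, an interferon-induced autophagy gene (log2 fold change −0.88, SE 0.31, edgeR adjusted p = 0.405), and Slc39a4, a zinc importer (−0.78, SE 0.33, edgeR adjusted p = 0.576).

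Markers of other cells were measured beside these. Of 8 goblet genes, 7 had log2 fold changes below 0 (median −0.91). None passed in edgeR, and 3 were lower with an unadjusted p below 0.05, beside 4.85% of all tested genes. DESeq2 called 1, beside 220 genes called in either direction. Their sum was 8070 to 13218 CPM in DSS and 3734 to 8908 CPM in DSS+CA. Clca1, a goblet cell protein of mucus, had −1.36 (SE 0.36, edgeR adjusted p = 0.184) and Tff3, a trefoil peptide, −0.80 (SE 0.32, edgeR adjusted p = 0.523). Of 4 tested stem cell genes, 3 were below 0 (median −0.62), and none had an unadjusted p below 0.05 or was called by DESeq2. Slc12a2 had a log2 fold change of −0.87 and Olfm4 of −0.88. Of 8 villus enterocyte genes, 5 were below 0 and 3 above (median −0.03). None passed in edgeR, 1 had an unadjusted p below 0.05, higher, and DESeq2 called 1. Over all 9913 tested genes these counts were 775 and 220 in either direction. Mttp, which loads lipid onto lipoproteins, had a log2 fold change of 0.86 (edgeR adjusted p = 0.414) and Alpi, the brush border phosphatase, 0.67.

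Of the genes that mark position along the small intestine, 4 of 4 proximal genes were tested, 2 below 0 and 2 above (median −0.31), and none had an unadjusted p below 0.05 or was called by DESeq2. Adh6a had a log2 fold change of −0.73 and Lct of −0.80. Of 3 ileal genes, none passed in edgeR, 1 had an unadjusted p below 0.05 and DESeq2 called 1. Of all 9913 tested genes, 775 had such a p and DESeq2 called 220. Fgf15, the hormone that ileal enterocytes make when bile acids activate the receptor FXR, averaged 13.2 CPM in DSS and 63.6 CPM in DSS+CA (log2 fold change 2.27, SE 0.53, edgeR adjusted p = 0.125). Slc10a2, the ileal bile acid transporter, had −0.28 (SE 0.54). The 4 tested pancreatic genes were below 0 (median −0.79), none with an unadjusted p below 0.05 or called by DESeq2. Their list summed to 10.1 to 47.5 CPM in DSS and 2.11 to 25.9 CPM in DSS+CA, with Cela2a at −1.53 and Pnlip at −1.06 on the log2 scale. Neutrophil genes were near 0, none was tested, Camp and Ngp had 0 counts in all libraries, and the 6 genes summed to 0.253 to 2.45 CPM. Of 4 macrophage genes, Lyz2 alone was tested, the same row as among the Paneth cell markers above, and the list summed to 2.75 to 17.9 CPM. The part of the goblet, enterocyte, position and pancreatic genes in the values of the defensins was not tested.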

How the data were processed

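Total RNA of crypts was sequenced from stranded libraries, per the labels' protocols. The submitters' processing notes name HISAT2 and StringTie with GRCm38 and mm10, and no versions. Each deposited table lists genes with the authors' raw read count and their FPKM value, according to the header line. How reads matching several paralogs were counted is not given in the sources used here.

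Counts were tested with edgeR 4.0.16 (quasi-likelihood, TMM, group only) in R 4.3.3 on 9913 genes with FPKM of at least 1 in at least 4 of 8 libraries, with Benjamini-Hochberg adjustment over all of them and a threshold of 0.05. SE was taken as the absolute log2 estimate over the root of its F statistic. The defensin sum replaced its rows in a table of 9898 rows. Sums and ratios were compared by exact two-sided permutation over 70 assignments. DESeq2 1.42.0, other scalings, no filter, a replicate block and left-out libraries were alternatives. The fit was tested on simulated data. FPKM was used for the filter and for levels between genes. Library totals are those of the deposited counts, which limit precision for members with few counts.

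Members and lists were chosen with earlier results of these data known. Values per library are given for the 6 products that are not defensins and the 8 defensin loci of highest mean CPM, except 1 that is not reported here though sums and counts of members include it. In each list the 2 tested genes with the smallest p are named, with their fold changes. Defa26, Defa3, Defa-ps1, Defa23, Reg3b, Reg3g, Atoh1 and Sox9 were named after their values had been seen. The same holds for Gfi1, Kit, Egf, Ephb3, Tcf7l2, Defa-ps3, Defa-ps10, Defa-ps17 and Defa-ps18. RefSeq promoters (GRCm38.p6) were matched by symbol or synonym for 13 of 39 members. Coordinates of 36 of 39 members equalled those of GENCODE M21.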

Additional observations from a re-analysis of the deposited data

Results flagged for a closer look

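Gm15284 in DSS+CA 3 (3257 CPM) and Defa5 in DSS+CA 3 (1015 CPM) lay far above the other 3 libraries of their group, by Dixon's criterion for 4 samples at the 95% level. With 52 groups examined, chance alone flags about 1 in 20. Gm15284 was 491 to 923 CPM and Defa5 120 to 242 CPM in the other DSS+CA libraries.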

How the results depend on the processing

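All 22 tested members had log2 fold changes below 0 in every setting run, though for Defa-rs7 the direction followed from the filter. Without the filter, further members were fitted. Defa-ps10 and Defa-ps3, with 13 and 2 counts over the 8 libraries, had log2 fold changes of 0.58 and 0.18. Those of Defa23, Defa-ps17, Defa-ps18 and Gm15299 were below 0. Of 308 alternative values, 298 stayed on their side of the threshold and 10 passed it. Of the 10, 7 were DESeq2 calls. The other 3 were Defa-ps1 with a replicate block (adjusted p = 0.0327), without DSS 2, DSS 3 and DSS+CA 3 (0.0466) and without DSS+CA 3 (0.0494).

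The count of genes past the threshold, 13 in edgeR, was 27 with DESeq2 size factors, 8 with total counts, 220 with DESeq2, 79 without the filter, 65 with the replicate block and 655 without DSS 2, DSS 3 and DSS+CA 3. The causes were not tested. Leaving out 1 library gave 4 to 84 genes: 7 without DSS 1, DSS 2 or DSS 4, 36 without DSS 3, 10 without DSS+CA 1, 4 without DSS+CA 2 or DSS+CA 4 and 84 without DSS+CA 3.

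The defensin sum in edgeR had a log2 fold change of −2.20 to −1.32 with each library left out, and never passed. Its adjusted p was 0.0852 by DESeq2. The exact-test difference was −2.10 to −1.20 for the defensin sum, −1.64 to −0.74 for the 6 other products, −0.54 to −0.40 for their ratio and −0.86 to −0.18 for the ratio to goblet genes. The last turned to 0.214 without DSS 2, DSS 3 and DSS+CA 3.

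Whether the replicate numbers pair the samples could not be decided from the values. Same-numbered libraries had deviations correlated at 0.747, −0.340, 0.101 and 0.207. Differently numbered libraries ran from −0.705 to 0.749, a range that holds all of these. With the block, the defensin sum had a log2 fold change of −1.54 (edgeR adjusted p = 0.123), and the exact sign-flip tests could not go below p = 0.125. Low counts limit the pseudogene rows.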
